A study of Homo sapiens with 4 samples.

Results

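Regulators of G protein signalling (RGS proteins) were followed in human T cell acute lymphoblastic leukaemia cells kept for 24 hours with or without glucose. The 8 genes described are RGS1, RGS2, RGS3, RGS10, RGS12, RGS14, RGS16 and RGS19, picked by gene symbol from the 60609 gene identifiers of the table with earlier results of the same comparison known. Their values here are therefore a description, and no p-value is given for them. RGS1 and RGS2 were 15.6-fold and 7.05-fold higher without glucose, while RGS19 and RGS10 were 2.24-fold and 1.60-fold lower. RGS16 was 1.24-fold higher, and RGS3, RGS12 and RGS14 did not pass the test run across all genes.

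The cells were CCRF-CEM, a long-established human leukaemia line of the T lineage. Both groups were of the genotype CCRF-CEM/HA-AMPKa2, that is, cells carrying the alpha 2 catalytic subunit of the energy sensor AMPK with an HA epitope tag, grown in RPMI medium with serum. The Ctrl group was untreated and the No glucose group was deprived of glucose for 24 hours, with 2 libraries of each (CTRL_7 and CTRL_8, ONG_9 and ONG_10). The labels give neither the promoter of the tagged subunit nor whether the line is 1 clone, and there was no group without it. They also do not say whether the 2 libraries of a group came from separate cultures, so the errors measure only the spread between these libraries, which may be technical.

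A heterotrimeric G protein is switched on when an activated receptor makes its alpha subunit exchange GDP for GTP, and it is switched off when that GTP is hydrolysed. RGS proteins speed up this hydrolysis through a shared RGS domain and so shorten the signal of many receptors, among them the chemokine and lipid receptors that guide lymphocytes. RGS1, RGS2, RGS3 and RGS16 belong to the R4 subfamily, which is mostly made of small proteins with little beyond the RGS domain. RGS10, RGS12 and RGS14 belong to the R12 subfamily, in which RGS12 and RGS14 carry further domains that bind Ras-family GTPases and inactive G alpha. RGS19, also called GAIP, belongs to the RZ subfamily, with a cysteine string near its N terminus.

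The stretches upstream of RGS1, RGS2, RGS10 and RGS19 are shown because these 4 genes had the largest differences, 2 in each direction. The sequences are from RefSeq on GRCh38.p14, each read on its gene's strand and ending before both the RefSeq and the GENCODE 29 start of the gene. They lie at chr1:192575523-192575726 (plus strand) for RGS1, chr1:192808789-192809038 (plus strand) for RGS2, chr10:119542720-119542969 (minus strand) for RGS10 and chr20:64079989-64080214 (minus strand) for RGS19. The line RGS1 TATA holds 30 bases at chr1:192575734-192575763, with the letters TATAAA in capitals.
RGS1: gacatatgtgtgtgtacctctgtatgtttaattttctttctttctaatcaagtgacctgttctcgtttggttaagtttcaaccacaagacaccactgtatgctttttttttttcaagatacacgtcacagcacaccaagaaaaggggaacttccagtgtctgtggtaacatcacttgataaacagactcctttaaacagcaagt
RGS1 TATA: tgcattctactaTATAAAgcagcagagacg
RGS2: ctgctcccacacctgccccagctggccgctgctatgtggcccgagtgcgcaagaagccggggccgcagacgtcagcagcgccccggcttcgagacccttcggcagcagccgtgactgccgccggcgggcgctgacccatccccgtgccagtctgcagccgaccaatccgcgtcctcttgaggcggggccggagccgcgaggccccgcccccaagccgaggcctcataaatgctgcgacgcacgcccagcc
RGS10: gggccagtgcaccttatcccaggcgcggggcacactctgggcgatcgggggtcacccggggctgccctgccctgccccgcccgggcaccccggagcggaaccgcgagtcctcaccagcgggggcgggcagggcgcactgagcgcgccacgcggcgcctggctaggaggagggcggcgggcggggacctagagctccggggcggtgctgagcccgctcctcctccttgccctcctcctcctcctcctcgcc
RGS19: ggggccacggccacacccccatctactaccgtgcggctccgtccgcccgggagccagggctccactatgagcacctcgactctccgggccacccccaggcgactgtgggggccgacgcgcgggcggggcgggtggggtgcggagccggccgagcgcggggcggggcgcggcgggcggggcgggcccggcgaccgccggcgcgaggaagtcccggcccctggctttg

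RefSeq gives several starts for RGS3 and RGS12 (5 each) and for RGS10 and RGS19 (2 each), and for every gene the window that holds the GENCODE 29 start of the gene was taken. In the 250 bases before that RefSeq start, RGS1 differed in composition from the other three. Its window had a GC content of 39.2%, 3 CpG dinucleotides and 1 TATAAA, which began 27 bases before the RefSeq start and lay past the more upstream start that GENCODE gives. The windows of RGS2, RGS10 and RGS19 had 72.8%, 77.2% and 80.4% GC and 28, 26 and 36 CpG, with no TATAAA on either strand. RGS1 was not alone in this, since the window taken for RGS3 had 42.8% GC and 1 CpG. It held no TATAAA, which another window of RGS3 did. Over 35116 RefSeq windows of the same length the median was 11 CpG (quartiles 3 and 23) and 58.0% GC, and 10.7% held TATAAA on either strand. CpG and TATAAA were counted after the sequences had been seen. A search of both strands for the cAMP response element TGACGTCA, the AP-1 site TGANTCA, the heat shock element GAANNTTC and the E-box CACGTG found 0 matches in the window taken for any of the 8 genes. In the windows of their other starts, the E-box was present for RGS3 and RGS19. These motifs occurred in 1.65%, 6.57%, 5.78% and 6.34% of all windows. The NFAT core GGAAA, present in 55.6% of windows, was in the window taken for RGS16 and not in those of the other genes, although other windows of RGS3, RGS10, RGS12 and RGS19 hold it. A match is a matter of letters only, and its absence from so short a window says nothing of the factor.

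Reads recovered for genes numbered 96698709 and 24513840 in CTRL_7 and CTRL_8 and 19035535 and 20081266 in ONG_9 and ONG_10. All 8 markers of the T lineage were present, with summed normalized counts of 59846 to 60769 in Ctrl and 59714 to 60329 without glucose. Of markers of other cells, the B cell list reached 894 to 907 in Ctrl and 523 to 536 without glucose, with CD79A the highest and MS4A1 at 0 or near it in every library. Within that list CD79B was 197 and 190 in Ctrl and 84.9 and 78.6 without glucose, and PAX5 was 32.6 and 29.4 against 10.6 and 4.2. The myeloid list summed to 33.4 to 54.7 in all 4 libraries with MPO at 0, the erythroid and platelet list reached 1.4 at most with HBB and PF4 at 0, and the adherent cell list summed to 410 to 539, nearly all of it EPCAM. Single T lineage markers differed more than their sum, with CD3E at 5882 and 5928 in Ctrl and 8846 and 8337 without glucose, and CD3G at 10043 and 10132 against 7564 and 7181. The part of these marker differences in the results was not tested. In bulk RNA, fewer cells that express a gene and less of its RNA per cell cannot be told apart.

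All 8 genes passed the filter on low values (a mean of at least 1 normalized count, a read count divided by the library's size factor). By limma on log2(normalized count + 1), with Benjamini-Hochberg adjustment over 27486 genes and a threshold of 0.05, 5 of the 8 were called, 3 higher and 2 lower without glucose. The background was 35.1% of all tested genes called, 14.4% higher and 20.7% lower. It was 66.0% among 10656 protein-coding genes with a mean of at least 50 normalized counts over the 4 libraries. All 8 exceeded that level, RGS1 only through its No glucose values (means of 38.4 in Ctrl and 599 without glucose). The share of the members called, 62.5%, lay near the 66.0%. In 6 of the 8 both No glucose libraries lay on the same side of both Ctrl libraries, 4 above and 2 below, as did 66.8% of all tested genes, 35.1% above and 31.7% below. Of the 10656 coding genes with a mean of at least 50, 9086 did so, 2919 above and 6167 below. The median log2 fold change of the 8 was 0.18, that of all tested genes 0.04 and that of these coding genes -0.20. The authors' deposited table called 37.8% of the genes to which it gives an adjusted p, and its log2 fold changes for the 8 ranged from -1.16 for RGS19 to 3.90 for RGS1. Every log2 fold change below sets No glucose over Ctrl after 1 was added to each normalized count, which makes the changes of weakly expressed genes look smaller.

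**Figure D1:**
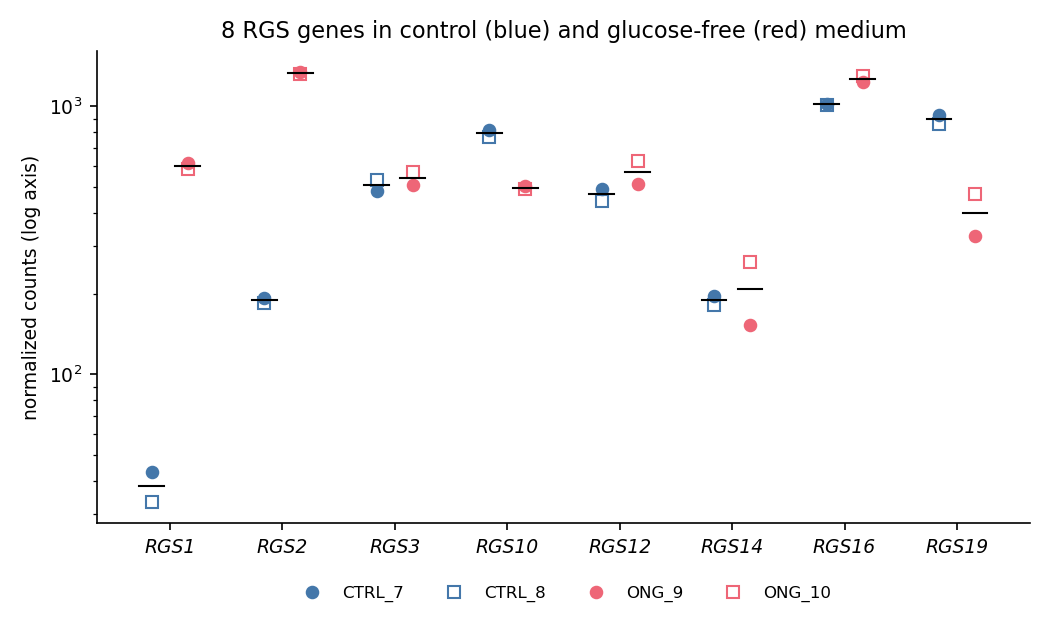
Normalized counts of the 8 RGS genes on a log axis, in the Ctrl libraries (blue) and the No glucose libraries (red), with circles for CTRL_7 and ONG_9, squares for CTRL_8 and ONG_10 and bars for group means (n = 2). RGS1 and RGS2 sit far higher without glucose, RGS10 and RGS19 lower, and the No glucose libraries stand furthest apart for RGS14 and RGS19.

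RGS1 acts on Gi- and Gq-class alpha subunits and is known in lymphocytes as a brake on chemokine-driven migration. Its gene (ENSG00000090104) spans chr1:192575727-192580031 on the plus strand in GENCODE 29. It measured 43.3 and 33.4 normalized counts in CTRL_7 and CTRL_8, and 615.6 and 582.3 in ONG_9 and ONG_10. Both No glucose libraries were thus far above both controls and close to each other. Group means were 38.4 ± 6.96 and 599 ± 23.5 (SD, n = 2), a log2 fold change of 3.94 ± 0.15 (SE). Among the 10656 coding genes, 7 had a larger log2 fold change, but RGS1 enters that set only through its No glucose values. The Ctrl values rest on 126 and 25 reads and lay further apart in proportion than the No glucose values. The value ran from 3.76 to 4.15 over the 14 alternative settings.

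RGS2 is known for its preference for Gq-class alpha subunits and, among R4 members, for limiting receptor signals that run through phospholipase C beta. The gene (ENSG00000116741, chr1:192809039-192812283, plus strand) gave 192.7 and 184.6 normalized counts in the controls and 1341.8 and 1318.9 without glucose. The groups did not overlap, and the libraries of each group lay within a few percent of each other. Means were 189 ± 5.73 and 1330 ± 16.2 (SD, n = 2), and the log2 fold change was 2.81 ± 0.08 (SE), with a range of 2.78 to 3.02 over the alternatives. In absolute terms RGS2 added 1142 normalized counts and RGS1 561. Among the same coding genes, 18 had a larger log2 fold change than RGS2.

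RGS16, an R4 regulator of Gi and Gq signals, is encoded on the minus strand at chr1:182598623-182604408 (ENSG00000143333). Values were 1025.3 and 1015.2 normalized counts in Ctrl and 1238.7 and 1296.5 in No glucose. Both glucose-free libraries were above both controls by a margin wider than the gap within either pair. The means of 1020 ± 7.13 and 1268 ± 40.8 (SD, n = 2) gave a log2 fold change of 0.31 ± 0.07 (SE). This difference was no longer called without CTRL_7 (0.32) or without CTRL_8 (0.31), and it was 0.52 with library totals as the scaling.

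RGS3, an R4 member with large isoforms, lies on the plus strand at chr9:113444731-113597743 (ENSG00000138835). It measured 483.0 and 532.4 normalized counts in the controls and 511.0 and 568.3 without glucose, so the groups overlapped. The log2 fold change of 0.09 ± 0.09 (SE) was not called. It was called only with library totals (0.30), among the 14 alternatives.

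RGS10 consists of little more than an RGS domain, acts on Gi-class alpha subunits and is abundant in immune cells and microglia. Its gene (ENSG00000148908) is on the minus strand at chr10:119499828-119542708. The controls gave 819.9 and 771.8 normalized counts, and the No glucose libraries 503.4 and 491.1. Each pair was close and both glucose-free libraries were below both controls. The means of 796 ± 34.0 and 497 ± 8.69 (SD, n = 2) correspond to a log2 fold change of -0.68 ± 0.08 (SE). It remained called as lower in all 14 alternatives, at -0.72 to -0.35, the smallest value being the one with trends of GC content and transcript length removed.

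RGS12 and RGS14 are the large R12 proteins, which combine the RGS domain with Ras-binding and GoLoco motifs, the latter holding Gi alpha in its GDP form. RGS12 (ENSG00000159788, chr4:3293028-3439913, plus strand) measured 492.9 and 445.4 normalized counts in Ctrl and 512.5 and 627.2 in No glucose. The groups did not overlap, but ONG_9 lay nearer to CTRL_7 than to ONG_10, and the log2 fold change of 0.27 ± 0.11 (SE) was not called. It was called with library totals (0.48), without ONG_9 (0.42) and with GC and length trends removed (0.27). RGS14 (ENSG00000169220, chr5:177357837-177372601, plus strand) had 195.8 and 181.9 normalized counts in the controls, 153.1 in ONG_9 and 262.4 in ONG_10. The controls thus lay between the glucose-free libraries, which rest on 101 and 187 reads. Its log2 fold change of 0.09 ± 0.20 (SE) was -0.30 without ONG_10 and, called, 0.47 without ONG_9, and it was also called with GC and length trends removed (0.34).

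RGS19 is an RZ-subfamily regulator of Gi-class alpha subunits, including Gz, and is found on clathrin-coated vesicles. The gene (ENSG00000171700) is on the minus strand at chr20:64073181-64079988. It gave 930.5 and 860.1 normalized counts in Ctrl and 327.5 and 471.4 in No glucose. Both glucose-free libraries were well below both controls, although ONG_10 stood 1.44 times as high as ONG_9. From 895 ± 49.8 the mean went to 399 ± 102 (SD, n = 2), a log2 fold change of -1.18 ± 0.14 (SE). It was called as lower in all 14 alternatives, at -1.45 without ONG_10, -0.92 without ONG_9 and -0.85 with GC and length trends removed.

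The gap between the glucose-free libraries varied with GC content. Coding genes with a mean of at least 50 normalized counts were divided into 5 equal bins by the GC content of the longest transcript. The median log2 ratio of ONG_10 to ONG_9 was -0.10, -0.09, -0.06 and 0.03 in the lower bins and 0.27 in the highest (57.5% to 73.9% GC). RGS12 (57.7% GC), RGS3 (58.9%), RGS19 (62.3%) and RGS14 (62.9%) are in that bin, with ratios of ONG_10 to ONG_9 of 1.22, 1.11, 1.44 and 1.71. RGS1 (35.8% GC), RGS2 (41.5%), RGS10 (44.4%) and RGS16 (53.4%) had ratios of 0.946, 0.983, 0.976 and 1.05. Between the controls the medians by bin lay between -0.09 and -0.003. The median log2 fold change of No glucose over Ctrl was -0.12, -0.15, -0.19, -0.22 and -0.35 from the lowest to the highest bin, the last being that of RGS19. The part of GC content in these gaps and in the fold changes of the 8 genes was not tested.

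**Figure D2:**
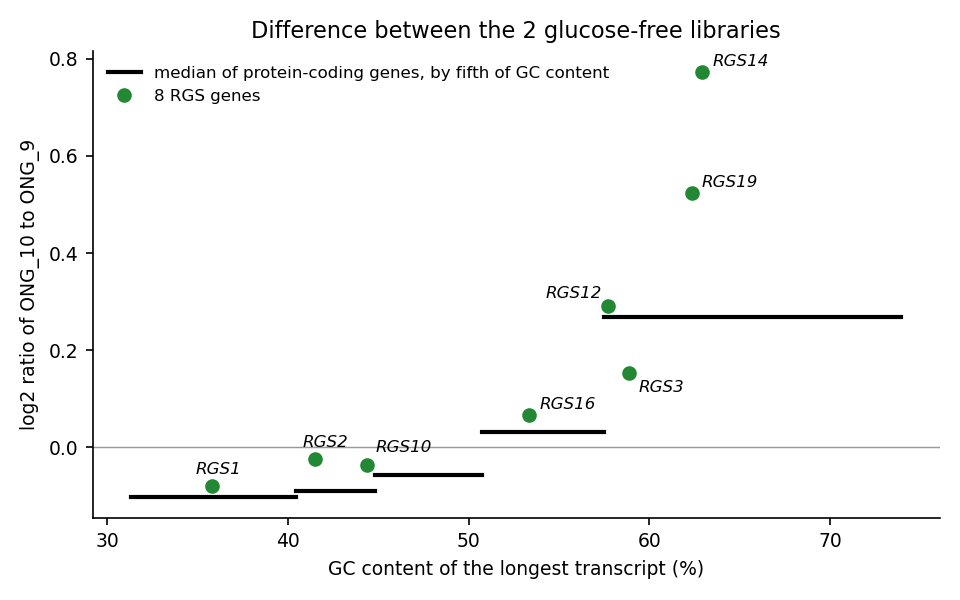
The log2 ratio of the glucose-free libraries (ONG_10 over ONG_9, vertical axis) against GC content of the longest transcript in percent, for the 8 RGS genes (green points) and as the median of protein-coding genes in each of 5 bins of GC content (black bars). RGS14 and RGS19 lie above the 0.27 median of the highest bin, and RGS1, RGS2 and RGS10 lie just below 0.

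Levels can be compared between genes only per length, so normalized counts were divided by the kilobases of exon of each gene. In Ctrl the order per kb of exon was RGS10 (636), RGS19 (441), RGS16 (420), RGS2 (90.0), RGS14 (49.7), RGS3 (36.8), RGS12 (34.1) and RGS1 (9.32). Here RGS19 (459 and 424 in CTRL_7 and CTRL_8) and RGS16 (422 and 418) differed by less than the SD of RGS19 (24.6), and RGS3 (35.0 and 38.6) overlapped with RGS12 (35.8 and 32.4). Without glucose RGS2 came first (635), followed by RGS16 (522), RGS10 (397), RGS19 (197), RGS1 (145), RGS14 (54.7), RGS12 (41.4) and RGS3 (39.1). RGS14, RGS12 and RGS3 overlapped with one another in these libraries, RGS19 (161 and 232 in ONG_9 and ONG_10) lay above RGS1 (150 and 141) by little more than its own SD (50.2), and RGS2 moved from below RGS16 to the top. With the longest transcript as the length, the order in Ctrl was RGS10, RGS19, RGS16, RGS2, RGS3, RGS12, RGS14 and RGS1. Without glucose it was then RGS2, RGS10, RGS16, RGS19, RGS1, RGS3, RGS12 and RGS14, so the places of RGS10 against RGS16 and of the lowest genes depend on the length used.

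The 8 genes summed to 1718 ± 61.6 normalized counts per kb of exon in Ctrl and 2032 ± 75.8 without glucose (SD, n = 2). RGS2 made up 5.24% ± 0.0286 of that sum in Ctrl and 31.3% ± 1.55 without glucose (SD, n = 2). RGS1 went from 0.541% to 7.17%, RGS10 from 37.0% to 19.6% and RGS19 from 25.7% to 9.65%. RGS16 held 24.5% and 25.7%. The sum was higher in both glucose-free libraries (1978 and 2086) than in both controls (1761 and 1674), and its 3 largest contributors went from RGS10, RGS19 and RGS16 to RGS2, RGS16 and RGS10.

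**Figure D3:**
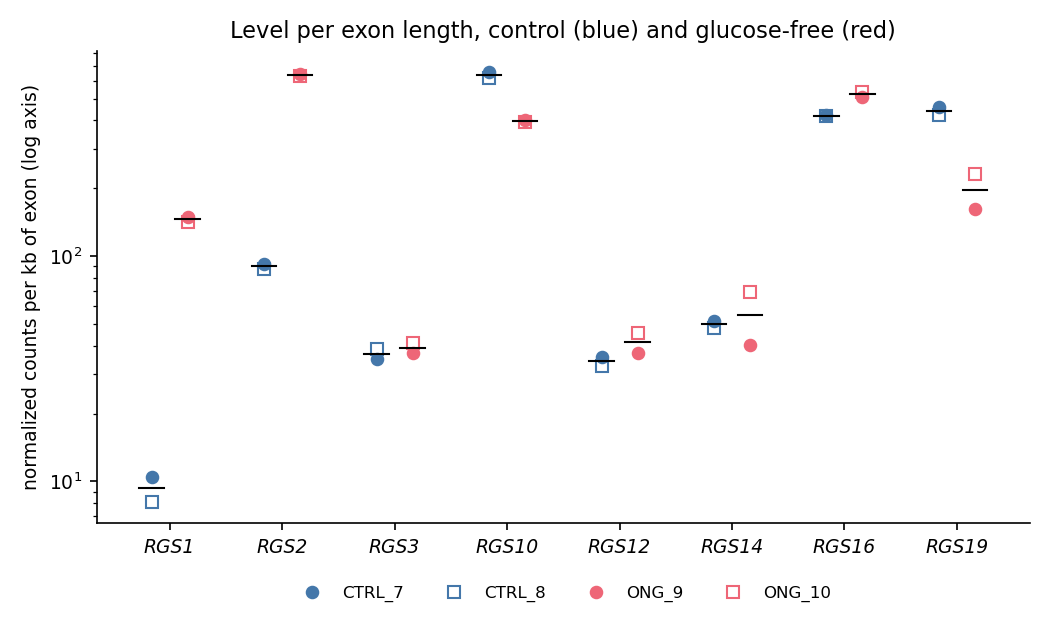
Level of the 8 RGS genes as normalized counts per kilobase of exon on a log axis, with Ctrl libraries in blue, No glucose libraries in red, circles for CTRL_7 and ONG_9, squares for CTRL_8 and ONG_10 and bars for group means (n = 2). RGS10 is the highest in Ctrl at 636 and RGS2 the highest without glucose at 635, while RGS1 rises from the lowest place at 9.32 to 145.

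RGS1 and RGS2 lie in a group of RGS genes on the long arm of chromosome 1, with 229 kb between them. From RGS18 to RGS2 (chr1:192158457-192812283) GENCODE 29 lists 12 genes that lie wholly within the interval, of which 7 were tested. Besides RGS1 and RGS2, RGS13 was called higher there and the pseudogene ENSG00000226723 lower (-2.10 ± 0.40, SE, not called without CTRL_7 at -1.97). RGS18, between 167 and 232 normalized counts, was not called (0.27 ± 0.13), and RGS21 was below the filter with 2 of 4 libraries at 0. RGS16 and RGS8 lie near each other elsewhere on the same arm, on the minus strand. A further gene, an opposite-strand long noncoding RNA (ENSG00000285280), reaches beyond the interval and overlaps both RGS1 and RGS2. It measured 6.18 and 16.1 normalized counts in Ctrl, 30.3 in ONG_9 and 4.21 in ONG_10, beside 43.3 and 33.4 for RGS1 in Ctrl and 615.6 and 582.3 without glucose. The kit keeps strand, but whether the counting used it is not given in the sources used here.

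Of 12 other genes of the RGS series, 9 were tested, 3 were higher without glucose and 0 were lower, at a median log2 difference of 0.60. That is 33.3% called, near the 35.1% of all tested genes (14.4% higher and 20.7% lower). The mean normalized counts of these 12 genes over the 4 libraries were all below those of the 8 (198 for RGS14, the lowest of the 8, and 192 for RGS18). In Ctrl alone RGS18 (173) and RGS17 (114) were above RGS1 (38.4). Per kb of exon RGS18 (61.7 in Ctrl and 74.8 without glucose) was above RGS14 (49.7 and 54.7), RGS3 and RGS12. RGS8, an R4 member known from brain, had 13.7 and 13.4 normalized counts in Ctrl and 36.4 and 29.5 without glucose (1.21 ± 0.30, SE, with an adjusted p of 0.0078 by limma and Benjamini-Hochberg). RGS13, an R4 member known from germinal centre B cells and mast cells, went from 8.24 and 5.35 to 15.2 and 19.6 (1.25 ± 0.41, adjusted p = 0.034 by limma). RGS17, an RZ relative of RGS19, went from 117 and 111 to 170 and 178 (0.60 ± 0.13, adjusted p = 0.0037 by limma). None of the 3 was called without CTRL_7 (1.23, 1.52 and 0.64) or without CTRL_8 (1.20, 0.98 and 0.56), and DESeq2 called RGS17 alone. RGS13 was also not called without ONG_10 (1.08). RGS20 (0.71 ± 0.36) and RGS5 (-0.04 ± 0.25), the latter changing sign with the scaling, were not called. RGS20 was called by edgeR (0.89) and limma-voom (0.93), and RGS18 with library totals (0.48) and with GC and length trends removed (0.33). RGS4 and RGS7 were at 0 in all 4 libraries. A second entry that overlaps RGS5 on the genome (ENSG00000232995) measured 76.6 and 86.9 normalized counts in Ctrl and 138.0 and 126.3 without glucose. It was named for these values, so no p is given, and its reads cannot be told apart from those of RGS5 with certainty.

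More distant proteins that hold an RGS-like domain, include the axins of WNT signalling, the exchange factors activated by G12-class subunits and some sorting nexins. Of 11 such genes, 10 were tested, 2 were higher and 0 were lower. The sorting nexins SNX25 (0.33 ± 0.07, SE) and SNX13 (0.23 ± 0.06) passed the test, and neither did without CTRL_7 (0.38 and 0.23) or CTRL_8 (0.29 and 0.23). SNX13 was also not called with GC and length trends removed (0.09). AXIN1 (-0.10), AXIN2 (0.39), ARHGEF1 (0.03), ARHGEF11 (-0.11), ARHGEF12 (0.16), SNX14 (-0.08) and AKAP10 (0.08) did not pass. With library totals the count of higher genes in this list was 5. AXIN2 was also called higher by edgeR (0.43). With GC and length trends removed, ARHGEF1 was called higher (0.24) and ARHGEF11 lower (-0.21). When 1 library was left out, AXIN1 ran from -0.27 to 0.073, ARHGEF1 from -0.20 to 0.26 and SNX14 from -0.13 to -0.041.

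**Figure D4:**
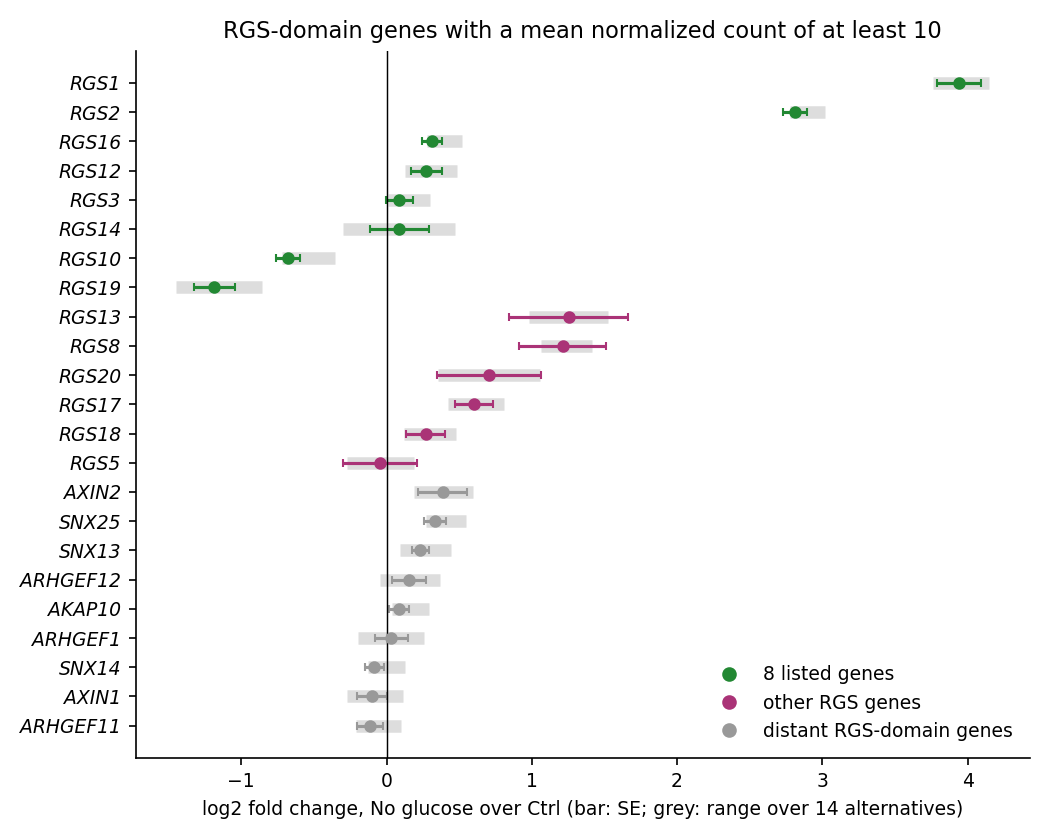
Log2 fold change (No glucose over Ctrl) of RGS-domain genes with a mean of at least 10 normalized counts, with SE as bars and the range over the 14 alternatives as grey bands. RGS1 (3.94) and RGS2 (2.81) lie far to the right of the other genes, and RGS19 (-1.18) and RGS10 (-0.68) are the lowest.

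The pathway around the RGS genes was described from 7 lists of genes by role. Together with the other RGS and RGS-domain genes these lists hold 147 genes, of which 127 were tested, 34 were higher and 41 lower. That is 59.1% called, beside 35.1% of all tested genes and 66.0% of coding genes with a mean of at least 50. Not all of the pathway genes reach that mean. Among the coding genes with a mean of at least 50, 2013 were higher and 5025 lower, with a median log2 fold change of -0.20. With library totals 43 of the pathway genes were higher and 31 lower. Receptors came first, since RGS proteins act below them. Of 35 chemokine, lipid and related receptors 32 were tested, and 15 were higher and 7 lower (median log2 fold change 0.35). Among genes with a mean of at least 10 normalized counts, the largest rises were those of GPR171, from 34.8 to 90.9 normalized counts (1.36 ± 0.23, SE), GPR18, from 209 to 473 (1.17 ± 0.10), and GPR183, the oxysterol receptor that positions lymphocytes, from 57.8 to 127 (1.10 ± 0.19). The deepest falls at that mean were those of the sphingosine 1-phosphate receptors S1PR5, from 134 to 47.6 (-1.49 ± 0.18), and S1PR2, from 81.9 to 30.5 (-1.40 ± 0.21), and of the cannabinoid receptor CNR2, from 56.7 to 25.6 (-1.12 ± 0.24, not called without CTRL_8 at -1.04). S1PR1, another sphingosine 1-phosphate receptor, rose from 1041 to 1460 (0.49). The chemokine receptor CCR8, below that mean, fell from 16.3 to 2.16 (-2.48, not called without CTRL_7 at -2.34). S1PR1 and CCR8 were chosen after their values had been seen.

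Among the G protein subunits, GNAI2 and GNB4 fell and GNAO1 rose. Of 13 G alpha genes tested from 15, 3 were higher and 5 lower (median log2 fold change -0.16), and with library totals 4 were higher and 4 lower. GNAI2, the main Gi subunit of lymphocytes and a substrate of many RGS proteins, fell from 6863 to 4281 normalized counts (-0.68 ± 0.07, SE). GNA12 (-0.61) and GNAI3 (-0.37) also fell, the latter not called without CTRL_7 (-0.36). GNAO1, known chiefly from neurons, rose from 77.0 to 185 (1.25 ± 0.14), and the Gq-class subunits GNA11 (0.56) and GNA15 (0.37) rose too. GNAQ, another Gq-class subunit and chosen after its values had been seen, fell from 9401 to 8433 (-0.16). It was not called by edgeR, with TMM scaling, without a filter or without either Ctrl library, and it was 0.054 with library totals. GNA15 was not called by DESeq2 (0.38) or without CTRL_7 (0.43), CTRL_8 (0.32) or ONG_10 (0.20). The count of lower G alpha genes was 2 without CTRL_7 and 3 without CTRL_8.

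Of 14 beta and gamma subunit genes tested from 17, 0 were higher and 8 lower, with a median of -0.57. GNB4 fell from 2868 to 978 normalized counts (-1.55 ± 0.06, SE), and GNGT2 changed by -0.93. GNG13 (-1.72 ± 0.60, limma adjusted p = 0.047) missed the threshold in 8 of the 14 alternatives. The count of lower genes was 5 without CTRL_7 and 5 with library totals. Of 7 tested cofactors that help to fold, load or hold the subunits, 0 were higher and 3 lower, namely the G alpha exchange factor and chaperone RIC8A (-0.52), the phosducin-like PDCL (-0.48) and the GoLoco protein GPSM2 (-0.30). GPSM2 was not called with library totals (-0.091) or without CTRL_7 (-0.34) or CTRL_8 (-0.26).

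Receptor kinases and arrestins, which end signalling at the receptor, included no gene called higher, although 1 was with library totals. That result also changed when either No glucose library was left out. All 7 were tested and 5 were lower (median log2 fold change -0.56). The arrestin ARRB2 fell from 3300 to 1950 normalized counts (-0.76 ± 0.06, SE), and the kinases GRK6 (-0.71) and GRK2 (-0.56) fell as well. GRK2 was not called without CTRL_7 (-0.51). The count of lower genes was 2 without CTRL_7 and 3 without CTRL_8.

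Effectors moved in both directions. Of 24 tested cAMP genes (adenylyl cyclases, protein kinase A subunits, phosphodiesterases and CREB factors), 6 were higher and 9 lower, with a median of -0.05, and with library totals 9 were higher and 6 lower. PDE4D, a cAMP-degrading phosphodiesterase, rose from 8537 to 26602 normalized counts (1.64 ± 0.05, SE), and CREM (0.76) and PDE3B (0.47) rose as well. PRKAR2B, a regulatory subunit of protein kinase A, fell from 131 to 38.7 (-1.73 ± 0.18), and the cyclases ADCY1 (-1.34) and ADCY3 (-1.30) fell. Without CTRL_7 the counts were 3 higher and 5 lower. Of 11 tested effectors of Gq and of beta-gamma, 5 were higher and 4 lower, with a median of 0.17. The beta-gamma responsive PI3K adaptors PIK3R6, from 515 to 1055 (1.03 ± 0.09), and PIK3R5 (0.81) rose, as did PREX1, from 18.9 to 45.9, which was not called by DESeq2 or without CTRL_8 (0.89) or ONG_10 (1.28). PLCB3, 1 of several phospholipase C beta genes in the list, fell from 831 to 268 (-1.63 ± 0.09), and ARHGEF25 (-1.51, not called by DESeq2 or without CTRL_7 at -1.44) and TRIO (-0.86) fell. The count of higher genes in that list was 3 without CTRL_7, CTRL_8 or ONG_10 and by DESeq2, and the count of lower ones was 2 without CTRL_7.

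**Figure D5:**
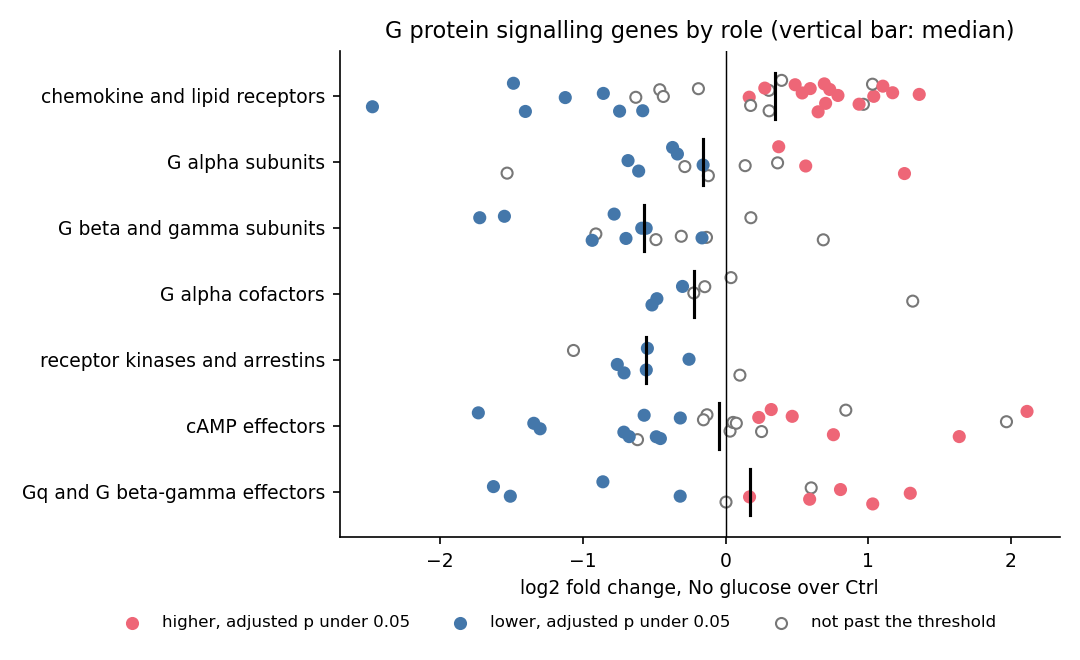
Log2 fold change (No glucose over Ctrl, horizontal axis) of every tested gene in 7 lists of G protein signalling genes, spread vertically for legibility, with red for genes called higher, blue for genes called lower, open circles for those not called (limma, adjusted p threshold 0.05) and a black bar at each list's median. The beta and gamma subunits and the receptor kinases and arrestins hold no red point, and the receptors have the highest median, 0.35.

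Genes outside the lists whose values followed the same course as RGS1 and RGS19 over the 4 libraries were found by Euclidean distance between log2(normalized count + 1) values centred on each gene's mean, among 9499 candidates with a mean of at least 50 normalized counts. Among the nearest to RGS1 were SYTL3, a synaptotagmin-like protein (distance 0.125, from 30.2 to 437 normalized counts), NPR3, the natriuretic peptide clearance receptor (0.210, from 6.97 to 110) and SCG2, a granin (0.328, from 125 to 1752). SYTL3 and NPR3 reached the mean of 50 only through their No glucose values. For genes that low in Ctrl, a rise follows from the filter. Among the nearest to RGS19 were TIMM13 (distance 0.0216), SLC2A6 (0.0491) and MELTF (0.0569), whose log2 fold changes lay between -1.21 and -1.20. These 3 had ratios of ONG_10 to ONG_9 of 1.36 to 1.41 and a GC content of 63.6% to 67.5%. The distance takes in both glucose-free libraries, so ratios and fold changes near those of RGS19 follow from the choice. Since that ratio varied with GC content, the high GC content is no separate result either. The likeness rests on 4 libraries and is a description.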

How the data were processed

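RNA from 2 Ctrl and 2 No glucose samples was made into stranded total RNA libraries and read from 1 end. The submitters' processing notes name STAR 2.6.0c, RSEM 1.3.0, DESeq2 1.18.1 and the build hg38. The annotation release and counting strand are not given in the sources used here. The deposited signal values are read counts scaled by the authors with 1 size factor for each library (normalized counts). Further deposited values belong to the authors' own comparison, namely log2 fold changes with standard errors, test statistics (a score) and p-values, raw and adjusted. Columns starting with ONG were read as No glucose, the only group besides Ctrl. Undoing the scaling gave whole reads (tolerance 0.01) for 100% of positive values, with size factors of 2.91, 0.748, 0.660 and 0.713. The intervals given as SD or SE do not separate counting error from other spread.

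The main test was limma 3.58.1 with its trend option (R 4.3.3), two-sided, on the log2 of normalized counts plus 1. It took genes with a mean of at least 1 normalized count and a Benjamini-Hochberg adjusted p under 0.05. Alternatives used edgeR 4.0.16 and DESeq2 1.42.0 on the recovered reads, limma-voom, other scalings, pseudocounts and filters, and left out each library. Removing trends of GC content and length was added after the data had been seen. The test was checked on simulated counts. Coordinates, lengths and GC content came from GENCODE 29, which holds 58457 of 60609 identifiers. The 8 members and all lists were chosen with earlier results of these data known. Genes were named by rule: every listed RGS gene, other RGS-domain genes with a mean of at least 10, the 3 largest rises and falls called in each pathway list at that mean, RGS genes on the same arm of chromosome 1, and the 4 nearest patterns to RGS1 and RGS19. Of the nearest patterns, 2 genes are not reported here. The second RGS5 entry, the pseudogene in the RGS18 to RGS2 region, S1PR1, CCR8 and GNAQ were named after their values had been seen.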

Additional observations from a re-analysis of the deposited data

How the results depend on the processing

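Over 14 alternatives and the 69 genes chosen by the naming rule or after their values were seen, 884 of 964 fold changes that could be tested kept their direction and side of the threshold, 48 lost the call, 19 gained one and 13 changed sign, of which 1, that of GNAQ with library totals (0.054), was in a gene called in the reported fit. RGS1, RGS2, RGS10 and RGS19 were called in the same direction in all 14. The listed RGS genes called higher numbered 3, and 5 with library totals or with GC and length trends removed, and 2 to 5 when 1 library was left out, while those called lower numbered 2 throughout. Of all tested genes 3948 were higher, against 2436 by DESeq2 (which gave 9592 genes no adjusted p), 6106 with library totals, 6337 with GC and length trends removed and 2027 to 4172 when 1 library was left out. The 5695 lower ones ranged from 3318 to 6387 when 1 library was left out. The pathway genes called higher (34) and lower (41) then ranged from 19 to 37 and from 24 to 45. The median log2 fold change of all tested genes shifted by 0.19 under library totals and by 0.14 with GC and length trends removed. Higher calls were 40.9% of all calls in the reported fit, 61.5% under library totals and 51.3% with the trends removed. Leaving out 1 library changed the sign of RGS14 (-0.30 to 0.47), RGS5 (-0.28 to 0.19), AXIN1 (-0.27 to 0.073) and ARHGEF1 (-0.20 to 0.26). Signs also changed for RGS5 with library totals (0.16), for AXIN1 with library totals (0.11) and with GC and length trends removed (0.0070), for ARHGEF11 (0.099) and SNX14 (0.13) with library totals, and for ARHGEF12 with GC and length trends removed (-0.045). The cause of these changes was not tested. No paired analysis was possible because the columns are named by group, with numbers that match no replicate number in the labels. Leaving out a library leaves 1 in its group, which is then assumed to vary like the other group. Few reads stand behind RGS1 in Ctrl (25 in CTRL_8) and the lower RGS genes.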
